A study of Homo sapiens with 38 samples.

Results

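The 2 genes described here, TXNIP and ARRDC4, were taken by symbol from a table of 57133 genes measured in 38 RNA-seq libraries of naive human embryonic stem cells leaving the naive state. Both belong to the alpha-arrestin family. TXNIP had been chosen by its measured level, which differed between mTeSR and E8 at day 4 and between experiments in N2B27, so those values, and every comparison that uses those libraries, are given for TXNIP as descriptions without a test. ARRDC4 was not picked for its own values. In GENCODE release 44 on GRCh38, TXNIP lies on the minus strand of chromosome 1 (145992435 to 145996579) and ARRDC4 on the plus strand of chromosome 15 (97960703 to 97973833). Both are protein-coding genes.

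All libraries came from Shef6, a single human embryonic stem cell line that had been adapted to grow naive without feeder cells. Naive cells were held in PXGL (a MEK inhibitor, the tankyrase inhibitor XAV939, a PKC inhibitor and LIF in N2B27 basal medium), with either serum or Geltrex, an extract of basement membrane, as the coating. Their library names read PXGLY where the titles read PXGL. Per the study's methods, naive cells had a ROCK inhibitor added after passaging, and cells seeded into N2B27 had it on the first day. The same cells were then plated on Geltrex out of PXGL, with XAV939 kept in the XAV and FAX groups alone. In Ex1 they were followed in N2B27 and in E8 at days 2, 3, 4, 6 and 8 and in mTeSR at days 4, 6 and 8, with naive cells of each coating at day 0. In Ex2 they were collected at day 4 in N2B27, in N2B27 with XAV939 (XAV), or in N2B27 with FGF2, XAV939 and Activin A (FAX), with naive cells on Geltrex whose library names carry d4 although their time point is given as d0. N2B27 is a basal medium with N2 and B27 supplements and no added growth factor, whereas E8 and mTeSR are commercial media for primed cells that contain FGF2 and TGFβ. Each of the 19 groups had 2 libraries. The study's figure legends call them technical replicates in most places and biological replicates in one, and no source says that they came from separate cultures, so p-values measure only the spread between such libraries, which may be technical.

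TXNIP binds and inhibits the redox protein thioredoxin, and it restrains glucose entry by drawing the glucose transporters GLUT1 and GLUT4 off the cell surface. ARRDC4 is its close relative and acts on glucose transport in the same way. Transcription of both genes is driven by MondoA (encoded by MLXIP) and its relative ChREBP (MLXIPL), which pair with MLX, sense glucose 6-phosphate and bind paired E-box-like elements in promoters, so that both transcripts are widely read as reporters of glucose sensing. Glucose itself was not measured in these cultures.

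The sequences just before the start sites are shown because they hold the elements through which glucose sensing is known to act on TXNIP. They are 250 bases before a start site in RefSeq annotation on GRCh38.p14, printed 5′ to 3′ on the strand of the gene, with the TXNIP stretch at chr1:145996580-145996829 (minus strand) and the ARRDC4 stretch at chr15:97960453-97960702 (plus strand). Capitals mark every match, on either strand, to 4 motifs. The paired E-box-like element was searched as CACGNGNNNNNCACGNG. The single E-box of the MYC and MAX family was searched as CACGTG. The CCAAT box, which binds NF-Y, was searched by those letters. The core bound by FOXO factors was searched as GTAAACA.
TXNIP: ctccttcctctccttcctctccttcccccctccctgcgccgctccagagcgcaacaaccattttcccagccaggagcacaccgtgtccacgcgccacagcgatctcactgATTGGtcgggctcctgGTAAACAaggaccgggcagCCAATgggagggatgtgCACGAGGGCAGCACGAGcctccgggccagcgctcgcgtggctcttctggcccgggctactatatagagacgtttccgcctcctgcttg
ARRDC4: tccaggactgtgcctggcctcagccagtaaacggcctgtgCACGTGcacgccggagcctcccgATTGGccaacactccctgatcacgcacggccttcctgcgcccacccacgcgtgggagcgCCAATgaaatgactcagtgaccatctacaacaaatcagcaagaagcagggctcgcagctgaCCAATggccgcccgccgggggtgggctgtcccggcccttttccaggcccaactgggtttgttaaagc
The paired element in TXNIP read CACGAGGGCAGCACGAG and spanned bases -88 to -72 from the start site. Only 20 of 35116 RefSeq promoter windows of 300 bases held such a pair (0.057%), and ARRDC4 was not among them. The ARRDC4 stretch instead held a single CACGTG at -210 to -205, a motif present in 7.26% of windows. CCAAT, present in 34.6% of windows, occurred at -140 to -136 (as ATTGG) and -105 to -101 in TXNIP, and at -187 to -183 (as ATTGG), -128 to -124 and -67 to -63 in ARRDC4. The FOXO core at -124 to -118 was found in TXNIP alone, against 3.42% of windows, and no motif overlapped another. RefSeq lists another TXNIP start, and the 250 bases before it, not printed here, held none of the motifs. These matches describe letters, not bound sites.

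Libraries held 3038046 to 5612354 counts each, with 1.86% to 3.63% of counts on mitochondrial genes. By correlation over all tested genes, 30 of 38 libraries lay nearest to their own partner, and among the others both libraries of E8 at day 3 lay nearest to libraries of other groups (replicate 1 to N2B27 at day 2, replicate 2 to E8 at day 4). Of all genes, 16674 passed the filter on low counts, both members among them, ARRDC4 through its higher groups. TXNIP gave 34 to 1122 counts per library and ARRDC4 0 to 26, so TXNIP was measured well in every library and ARRDC4 was at the limit of this depth in many. As a check of the cell state, all 6 naive markers tested (such as KLF17 and DPPA5) were lower and all 5 primed or formative markers (such as ZIC2) higher at day 8 than in naive cells in each medium, where 7.46% to 9.49% of all genes were lower and 18.2% to 19.3% higher. Levels are in CPM (counts relative to the library total, scaled by TMM, in the usual unit of edgeR), and a gene is said to be called, or to have risen or fallen, where the adjusted p was below 0.05 and the log2 fold change exceeded 1 in either direction.

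TXNIP varied 24.8-fold between the lowest and the highest group means, while the libraries of a group differed by at most 1.39-fold. The lowest level was in naive cells on serum coating, with 7.53 and 9.61 CPM, and naive cells on Geltrex in Ex1 had 15.9 and 16.4 CPM. The highest was in N2B27 at day 6, with 234 and 191 CPM, followed by N2B27 at day 8, with 169 and 150.1 CPM. The libraries of these groups did not overlap. In mTeSR, TXNIP was at 126 and 111 CPM at day 6 and at 122 and 113 CPM at day 8, below N2B27 at both days and above all other groups. In E8 the highest of all 10 libraries had 51.3 CPM. In bulk RNA, a change in the share of cells that express a gene and a change in its level per cell cannot be told apart. Ordered by mean, 10 of the 18 neighbouring pairs of groups had overlapping libraries, among them both late groups of mTeSR, E8 at day 8 with mTeSR at day 4, and E8 at day 3 with naive cells on serum coating.

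**Figure D1:**
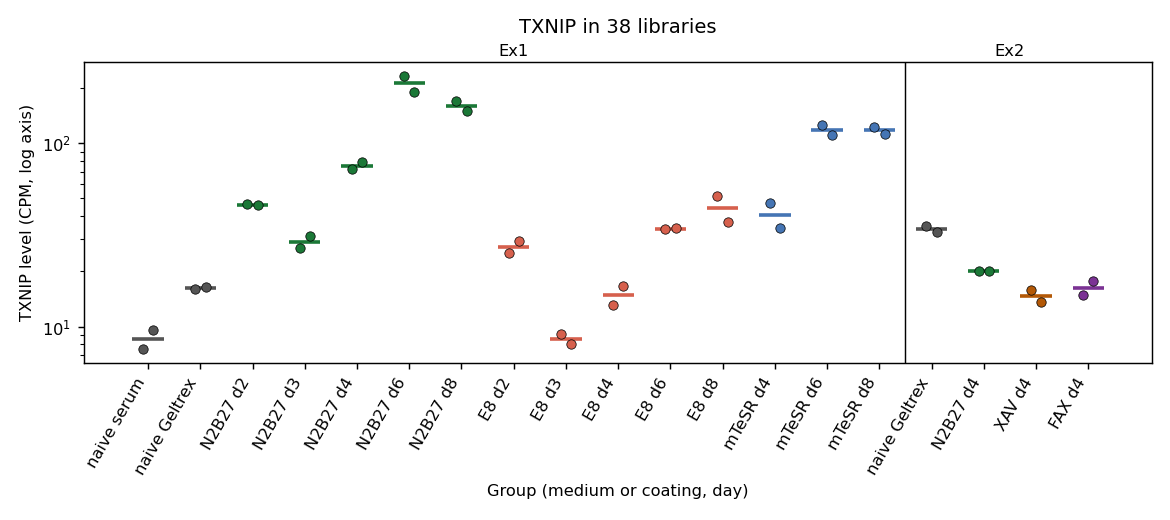
TXNIP level in CPM on a log axis (y) in each of the 38 libraries (points) by group (x), with a bar at each group mean. The late groups of N2B27 and mTeSR stand highest, at group means of 118 to 213 CPM, and the 4 naive libraries of Ex1 lie between 7.53 and 16.4 CPM.

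Which media raised TXNIP above the naive level was asked by comparing each day with the 4 naive libraries of Ex1, whose mean was 12.4 ± 4.48 CPM (SD, n = 4). In N2B27 TXNIP was higher at each day tested. It stood at 46.4 and 45.8 CPM at day 2, a 3.91-fold rise over naive cells (log2 1.97 ± 0.15 SE, adjusted p 2.92e-12 in edgeR's quasi-likelihood test, where 15% of all genes were called). At day 3 it was at 26.8 and 31.2 CPM, 2.47-fold over naive (adjusted p 7.56e-08, 15.4% called), lower than at day 2 in both libraries, a step that was not tested. At day 4 the libraries had 72.6 and 78.7 CPM, given without a test (18.1% called). By day 6 TXNIP was 18.0-fold above naive cells (log2 4.17 ± 0.13, adjusted p 1.15e-22, 25.2% called) and by day 8 13.5-fold (log2 3.76 ± 0.14, adjusted p 2.05e-21, 25.7% called), or log2 3.50 and 3.08 with naive cells of both experiments pooled as the reference. By p its rise ranked 35th of all genes at day 6 and 67th at day 8.

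In E8 TXNIP was higher than in naive cells at days 2, 6 and 8 but not at day 3. It was at 25.1 and 29.2 CPM at day 2, 2.31-fold above naive cells (adjusted p 1.36e-06, edgeR, 24.0% called). At day 3 it was at 9.10 and 8.05 CPM, below both day 2 libraries as in N2B27 (a step not tested), within the range of the naive libraries (log2 -0.46 ± 0.21, adjusted p 0.0746, 18.1% called), and at day 4 at 13.2 and 16.6 CPM, again overlapping them (20.8% called). It then rose to 34.1 and 34.4 CPM at day 6, 2.90-fold above naive (adjusted p 9.10e-10, 24.5% called), and to 51.3 and 37.0 CPM at day 8, 3.76-fold (adjusted p 1.45e-12, 28.8% called). In mTeSR TXNIP stood at 47.3 and 34.3 CPM at day 4 (19.7% called, TXNIP untested), and it was 10.0-fold above naive at day 6 (adjusted p 1.08e-19, 24.0% called) and 9.96-fold at day 8 (adjusted p 1.51e-19, 26.9% called). Every TXNIP difference from naive cells in Ex1 was lower when naive libraries of both experiments were pooled as the reference. The log2 fold change was then 1.29 in N2B27 at day 2, 2.65 and 2.64 in mTeSR at days 6 and 8, and 1.24 in E8 at day 8, all still called. The early rises were not all kept: against the naive libraries on Geltrex alone, the log2 fold change was 0.85 in N2B27 at day 3 and 0.75 in E8 at day 2, and with naive libraries of both experiments pooled 0.63 and 0.53, all under the fold threshold, and 0.86 in E8 at day 6 with the pooled reference. With the Geltrex and the pooled reference, E8 at day 3 was -0.92 (adjusted p 0.00131) and -1.13 (adjusted p 0.0763) against naive cells, not called in either. Naive cells on Geltrex were 1.89-fold above those on serum coating (log2 0.92 ± 0.22, adjusted p 0.0597, where 0.048% of genes were called), a difference not called with all libraries and called (log2 1.10, adjusted p 0.0370) without serum replicate 2.

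TXNIP separated the 3 media of Ex1 at equal days. E8 held it below N2B27 at each day. At day 2 the difference was 1.69-fold (log2 -0.76 ± 0.17, adjusted p 0.00378 in edgeR), under the fold threshold, in a comparison that called 4.55% of genes. At day 3 it was 3.40-fold (log2 -1.77 ± 0.21, adjusted p 1.09e-06, 1.68% called). At day 6 it was 6.21-fold (log2 -2.63 ± 0.15, adjusted p 1.81e-13, 5.28% called), which gave TXNIP the smallest p of all 16674 genes, and at day 8 3.59-fold (log2 -1.84 ± 0.15, adjusted p 6.47e-11, 7.29% called). The libraries did not overlap at any of these days. At day 4, described only, the means were 14.9 ± 2.41 CPM in E8 and 75.6 ± 4.27 CPM in N2B27 (SD, n = 2 each), where 2.49% of genes were called. Fitted without the other groups, the day 3 difference kept its size (log2 -1.75) but not its call (adjusted p 0.0651), while without either of the E8 libraries in turn, each nearest to another group, it was -1.87 (adjusted p 3.94e-05, without replicate 1) and -1.68 (adjusted p 1.84e-04, without replicate 2). Replicate 2 of N2B27 at day 3 also lay nearest to another group, and without it the difference was -1.65 (adjusted p 7.87e-05). The day 2 difference missed the p threshold without E8 replicate 1 of that day (log2 -0.64, adjusted p 0.0606).

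mTeSR, the other medium for primed cells, lay between E8 and N2B27. TXNIP was higher in mTeSR than in E8 by 3.46-fold at day 6 (log2 1.79 ± 0.15, adjusted p 2.99e-09 in edgeR), the third smallest p in a comparison that called 1.10% of genes, and by 2.65-fold at day 8 (log2 1.40 ± 0.15, adjusted p 4.74e-08, 5.31% called). The size of this difference did not change detectably from day 6 to day 8 (log2 -0.39, 95% interval -0.82 to 0.05, adjusted p 0.665, with 0.054% of genes called for that change). At day 4, where TXNIP was picked for the contrast, the libraries had 47.3 and 34.3 CPM in mTeSR and 13.2 and 16.6 CPM in E8, a log2 difference of 1.45, and 0.084% of genes were called. Against N2B27, TXNIP was lower in mTeSR by 1.80-fold at day 6 (log2 -0.85 ± 0.14, adjusted p 1.27e-04, 2.62% called) and by 1.36-fold at day 8 (log2 -0.44 ± 0.14, adjusted p 0.0348, 3.80% called). Both passed the p threshold but not the fold threshold, and the libraries did not overlap at either day. The day 8 difference missed the p threshold when any one of its 4 libraries was left out (adjusted p 0.0608 to 0.248). At day 4 the difference, untested, was -0.89 on the log2 scale (1.58% called).

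**Figure D2:**
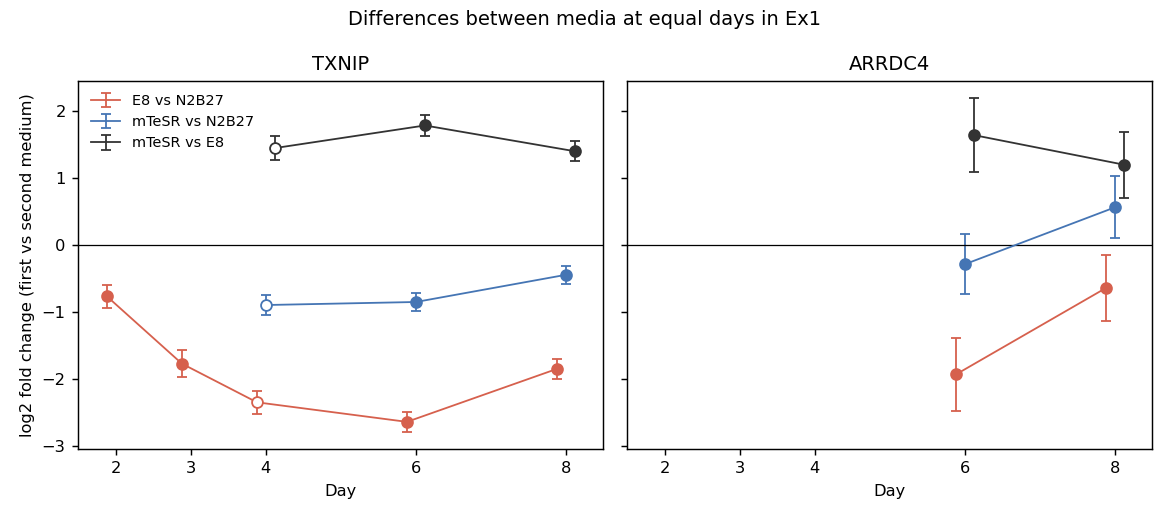
Log2 fold change between 2 media (y) at each day of Ex1 (x) for TXNIP (left) and ARRDC4 (right), with bars of 1 SE, open points where TXNIP was not tested, and ARRDC4, which was not tested, shown only where a library had more than 10 counts. TXNIP lay below 0 in E8 against N2B27 at every day, lowest at day 6 (-2.63), and above 0 in mTeSR against E8 (1.40 to 1.79).

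The course over days also differed between media. From day 2 to day 8 TXNIP rose 3.46-fold in N2B27 (log2 1.79 ± 0.15, adjusted p 1.34e-11 in edgeR, where 21.9% of genes were called). In E8 it was 1.63-fold higher at day 8 (log2 0.71 ± 0.17, adjusted p 0.00119, 28.2% called), past the p threshold and under the fold threshold, and past neither without E8 day 8 replicate 1 (log2 0.44, adjusted p 0.0741). The difference between these courses was itself past the threshold (log2 -1.08 ± 0.23, adjusted p 0.00257, with 9.56% of genes called). From day 6 to day 8 no medium showed a called change: the log2 difference was -0.41 in N2B27 (adjusted p 0.0841, 1.43% called), 0.38 in E8 (adjusted p 0.232, 0.804% called) and -0.01 in mTeSR (95% interval -0.29 to 0.28, adjusted p 0.993, 0.978% called).

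In Ex2 TXNIP moved the other way. Its naive libraries had 35.2 and 32.9 CPM, 2.10-fold above naive cells on Geltrex in Ex1 (log2 1.07 ± 0.19, adjusted p 1.63e-04 in edgeR, where 4.67% of genes were called). N2B27 at day 4 had 20.1 and 20.2 CPM, below both naive libraries of its own experiment, whereas the N2B27 libraries of Ex1 at that day (72.6 and 78.7 CPM) lay above all 4 of theirs. The log2 difference between the N2B27 groups of the experiments was -1.91, and that between their changes from naive cells on Geltrex -2.98. TXNIP was picked for the first difference, and the second uses the same N2B27 libraries, so neither carries a test. Across all genes, 1.01% were called between the N2B27 groups and 11.7% for the difference in change from naive cells on Geltrex (21.8% for the change in Ex2 itself). The experiment and anything else that differed between its cultures cannot be told apart.

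In the groups with added factors in Ex2, TXNIP had 15.9 and 13.5 CPM in XAV and 14.8 and 17.7 CPM in FAX, all below both N2B27 libraries of that experiment. It was thus lower than in the naive cells of Ex2 by 2.31-fold in XAV (log2 -1.21, adjusted p 4.36e-06 in edgeR, 19.6% called) and by 2.08-fold in FAX (log2 -1.06, adjusted p 3.65e-05, 21.0% called). The FAX difference fell under the fold threshold without FAX replicate 1 (log2 -0.94), and with naive cells of both experiments pooled neither was called (log2 -0.35 and -0.21). FGF2 and Activin A added to XAV gave no detectable difference (log2 0.15, 95% interval -0.27 to 0.56, adjusted p 0.984), in a comparison that called 0.012% of genes. Against N2B27, described only, the log2 differences were -0.45 in XAV (0.570% called) and -0.31 in FAX (0.336% called).

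ARRDC4 was far scarcer. Up to 3 counts were taken as the floor, which corresponded to 0.520 to 1.06 CPM and covers counting error only, and 12 of 38 libraries lay at or under it. Naive cells on serum coating had 0 counts in both libraries and naive cells on Geltrex in Ex1 had 1 and 3. In N2B27 the counts were 5 and 1 at day 2, 1 and 5 at day 3, 10 and 5 at day 4, 26 and 18 at day 6 and 12 and 21 at day 8. E8 gave 3 and 3, 6 and 2, 6 and 4, 2 and 8, and 12 and 8 counts at the same days. In mTeSR there were 8 and 6 counts at day 4, 16 and 18 at day 6 and 17 and 18 at day 8. The late libraries of N2B27 and mTeSR were thus the only groups with more than 10 counts in both libraries. In Ex2 naive cells had 4 and 7 counts, N2B27 4 and 5, XAV 9 and 7, and FAX 1 and 2. Comparisons in which no library had more than 10 counts are not given, which left 18 of 41 for ARRDC4.

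**Figure D3:**
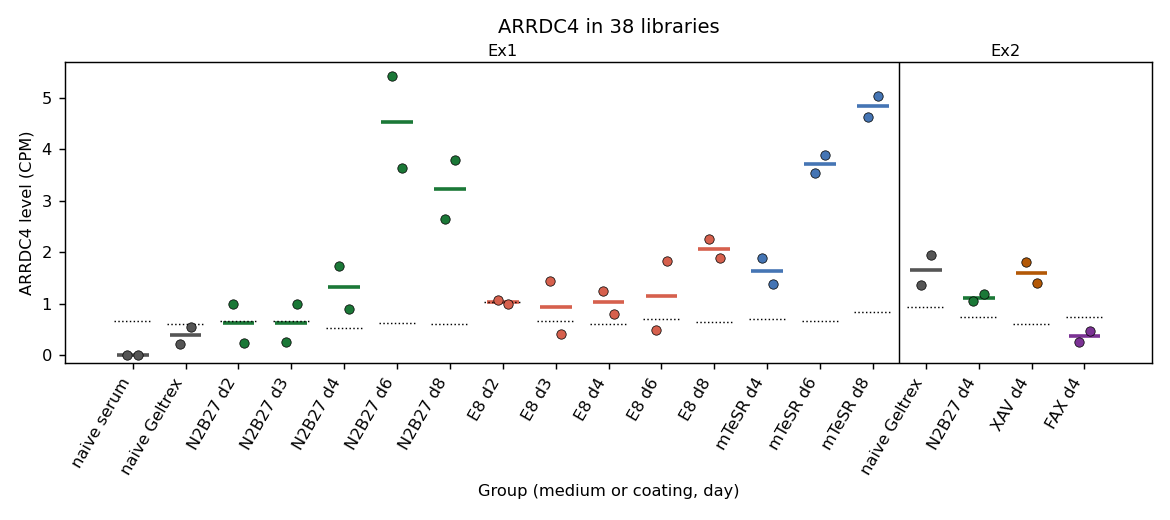
ARRDC4 level in CPM (y) in each of the 38 libraries (points) by group (x), with bars at group means and a dotted line at the mean level of 3 counts in that group. The means reach 4.83 CPM in mTeSR at day 8 and 4.52 CPM in N2B27 at day 6, and the libraries of 4 groups (naive cells on either coating in Ex1, E8 at day 2 and FAX) held 3 counts or fewer each.

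ARRDC4 was above its naive level of Ex1 at days 6 and 8 in N2B27 and mTeSR and at day 8 in E8. In E8 at day 6 its libraries (0.483 and 1.82 CPM) overlapped the naive ones. The gene passed the filter, and its comparisons the limit of 10 counts, through the groups in which it was high, so all its differences are given as descriptions with no test. Since every naive library of Ex1 was at the floor, the changes from naive cells are lower bounds, taken against the mean level of 3 counts per naive library. At day 6 it was at 5.42 and 3.63 CPM in N2B27, at least 7.14-fold above naive cells, and at 3.54 and 3.88 CPM in mTeSR, at least 5.86-fold. At day 8 the bounds were at least 5.08-fold in N2B27 (2.64 and 3.79 CPM), at least 7.62-fold in mTeSR (4.62 and 5.04 CPM) and at least 3.26-fold in E8 (2.25 and 1.88 CPM). Naive cells of Ex2 had 1.37 and 1.94 CPM, overlapping E8 at day 8 but not the late groups of N2B27 or mTeSR. Both day 8 libraries of N2B27 also lay above both of day 2, which had 5 and 1 counts (log2 2.28 ± 0.61), a difference that ran from 1.69 without N2B27 day 2 replicate 2 to 3.63 without its replicate 1. In E8, where day 2 was at the floor, day 8 was at least 2.02-fold above it.

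Between media, E8 had less ARRDC4 than N2B27 at day 6, at 0.483 and 1.82 CPM against 5.42 and 3.63 CPM, without overlap (log2 -1.93 ± 0.54). Leaving out 1 library moved this difference from -3.15 to -1.30, the latter without E8 replicate 1. mTeSR was above E8 at both late days, also without overlap, by log2 1.65 ± 0.56 at day 6 and 1.20 ± 0.50 at day 8 (SE). The day 6 value ran from 1.016 to 2.87 when 1 library was left out, lowest without E8 replicate 1 and highest without E8 replicate 2. At day 8 E8 and N2B27 differed by log2 -0.64. Between mTeSR and N2B27 the differences were -0.28 at day 6 and 0.57 at day 8. From day 6 to day 8 the log2 differences were -0.47, 0.82 and 0.38 in N2B27, E8 and mTeSR, the value in E8 running from 0.19 to 2.04 when 1 library was left out.

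Over the 19 groups, the levels of ARRDC4 and TXNIP were correlated. The Pearson correlation of group means of log2 CPM was 0.81 and Spearman's rho 0.73, a description over groups that share the course of days, the media and the library preparation, and that include the day 4 groups by which TXNIP was chosen and groups with ARRDC4 at the floor. In N2B27 at day 4, where TXNIP differed between the experiments, ARRDC4 had 10 and 5 counts in Ex1 and 4 and 5 in Ex2. Without N2B27 at days 6 and 8, the groups farthest from the median TXNIP level, r was 0.75 (17 groups), and over the 15 groups of Ex1 it was 0.85. Ranked by this correlation among 16673 other genes, ARRDC4 was number 65 for TXNIP and TXNIP number 119 for ARRDC4. Among 7136 genes reaching 20 CPM, those most like TXNIP included TPP2 (a peptidase, r 0.89), P4HA2 (a collagen prolyl hydroxylase, r 0.89), BBX (r 0.89) and DZIP3 (a ubiquitin ligase, r 0.88). For ARRDC4 they included SAT2 (r 0.89), SLC4A7 (a bicarbonate transporter, r 0.89), ERMP1 (r 0.88) and KIF1B (a kinesin motor, r 0.88).

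**Figure D4:**
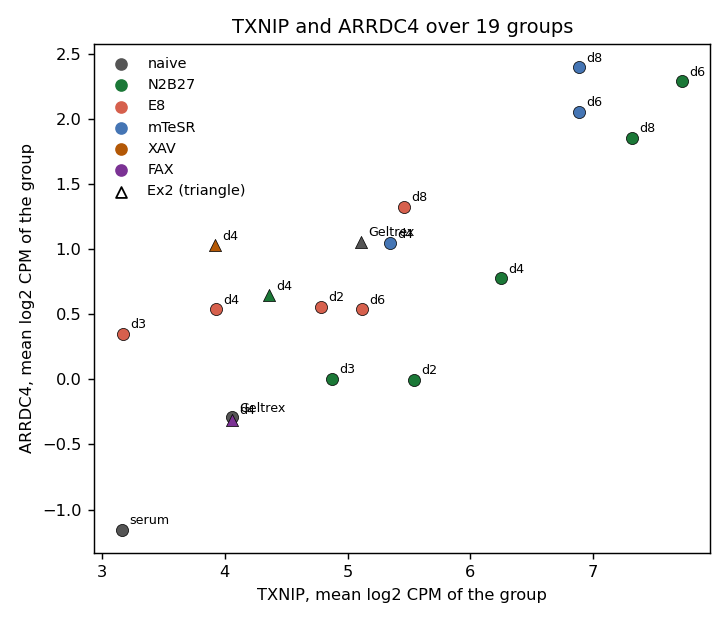
Mean log2 CPM of ARRDC4 (y) against that of TXNIP (x) for each of the 19 groups, coloured by medium, labelled by day or coating, with triangles for Ex2. Groups late in N2B27 and mTeSR sit at the upper right and naive cells on serum coating at the lower left (r 0.81).

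The transcript of MondoA stayed in a narrow range while TXNIP varied. MLXIP, which encodes this factor, was at 43.0 ± 3.68 CPM in naive cells on serum coating and at 28.0 ± 0.992, 45.1 ± 4.84 and 41.3 ± 9.65 CPM at day 8 in N2B27, E8 and mTeSR (SD, n = 2 each). It was thus not called against naive cells in any medium at day 8, and at that day it was higher in E8 than in N2B27 by log2 0.69 ± 0.17 (adjusted p 0.00315, edgeR), opposite in direction to TXNIP and under the fold threshold. Its partner MLX was not called either (log2 -0.32, -0.42 and -0.62 at day 8 in N2B27, E8 and mTeSR). MLXIPL, which encodes ChREBP, was at 1.64 ± 0.535 CPM in naive cells on Geltrex in Ex1 and passed the filter through its higher groups. Its differences are thus given as descriptions, with no test. At day 8 it differed from naive cells by log2 1.46 ± 0.40 in N2B27, 1.34 ± 0.41 in E8 and 2.14 ± 0.39 in mTeSR. Naive cells of Ex2, in which TXNIP was higher, had 6.95 ± 1.13 CPM of MLXIPL, 4.29-fold above those of Ex1 on Geltrex. In N2B27 at day 4, where Ex2 had less TXNIP, MLXIPL was at 4.24 and 3.01 CPM on average in Ex2 and Ex1 (log2 0.49 ± 0.45 for Ex2 against Ex1).

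Of the 12 genes of the MondoA and MAX network, all tested, 3 were higher and 1 lower in N2B27 at day 8 than in naive cells, with a median log2 fold change of -0.34 against 0.00 over all genes, and 3 were higher in E8 (median -0.16 against 0.04) and 3 higher and 1 lower in mTeSR (median -0.20 against 0.01). Of all genes, 18.2%, 19.3% and 18.2% were called higher, and 7.46%, 9.49% and 8.76% lower, at day 8 in N2B27, E8 and mTeSR. Those counted as higher in each medium were MLXIPL, which passed the filter through its higher groups, MYC, and MXI1, a MAX partner that represses MYC targets. MXI1 followed the order of TXNIP between E8 and the other media at day 6, being lower in E8 than in N2B27 (log2 -1.25 ± 0.18, adjusted p 1.10e-05, edgeR) and higher in mTeSR than in E8 (1.49 ± 0.18, adjusted p 2.18e-06), and it was again higher in mTeSR at day 8 (1.40 ± 0.17, adjusted p 8.11e-07). Between E8 and N2B27 MXI1 was called at day 6 alone, and between mTeSR and N2B27 at no day. It was also lower in N2B27 at day 4 in Ex2 than in Ex1 (log2 -1.07 ± 0.20, adjusted p 0.00134). MXD4, another MAX partner and the gene that fell at day 8 in N2B27 and mTeSR, was lower in mTeSR than in E8 at both late days (log2 -1.56 and -1.16).

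Of the other alpha-arrestins, 3 of 4 were tested (ARRDC1, ARRDC2 and ARRDC3). ARRDC3, an adaptor for receptor turnover, was higher in N2B27 than in E8, at 73.3 ± 1.89 against 22.9 ± 4.02 CPM at day 6 (log2 -1.67 ± 0.15 for E8 against N2B27, adjusted p 3.61e-09, edgeR) and at 67.1 ± 3.63 against 22.3 ± 0.0536 CPM at day 8 (-1.58 ± 0.15, adjusted p 4.00e-09). Unlike TXNIP it did not reach the call between mTeSR and E8 (log2 0.31, adjusted p 0.433 at day 6, and 0.65, adjusted p 0.00709 at day 8), and it was lower in mTeSR than in N2B27 at day 6 (log2 -1.37, adjusted p 3.67e-07). ARRDC2 was lower than in naive cells at day 8 in E8 (log2 -1.48) and mTeSR (-1.28) and was not called in N2B27 (-0.85). ARRDC1 was called in none of the comparisons at day 8.

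Of 8 genes of glucose uptake and phosphorylation, 6 were tested, and 3 of them, SLC2A1 (GLUT1), SLC2A3 (GLUT3) and HK1 (a hexokinase), were higher at day 8 than in naive cells in every medium, where 18.2%, 19.3% and 18.2% of all genes were called higher in N2B27, E8 and mTeSR. SLC2A1 rose 5.86-fold in N2B27, 6.48-fold in E8 and 7.71-fold in mTeSR, and E8 and N2B27 differed by log2 0.15 ± 0.11 at day 8 (adjusted p 0.390). SLC2A3 rose 6.38-fold, 4.28-fold and 7.08-fold in the same order. The 1 gene of this list called between E8 and N2B27 at days 6 and 8 was SLC2A4 (GLUT4), lower in E8, as were 2.97% and 3.96% of all genes. Of 7 other known targets of MondoA or ChREBP, 5 were tested, and 4 rose at day 8 in each medium with a median log2 fold change over the list of 1.52 in N2B27, 1.65 in E8 and 1.97 in mTeSR, against 0.00, 0.04 and 0.01 over all genes. These were KLF10 (a transcription factor), LDHA (lactate dehydrogenase), PFKFB3 (an activator of glycolysis) and RGS16 (a G protein regulator). Between E8 and N2B27 none of the 4 was called at day 6 or day 8, but LDHA was lower in E8 at day 4 (log2 -1.27 ± 0.17, adjusted p 1.03e-05, edgeR), and the remaining gene TKFC, a triokinase, was lower in E8 at day 6. PFKFB3 differed by log2 0.02 ± 0.16 at day 6 (adjusted p 0.945), the day at which TXNIP differed most. All 7 genes summed to 932 to 991 CPM in N2B27 and 624 to 666 CPM in E8 at day 6. At day 8 the sums overlapped, at 870 to 898 and 856 to 1084 CPM. In N2B27 at day 4 they were 475 to 505 CPM in Ex2 and 812 to 852 CPM in Ex1. In naive cells on Geltrex they were 798 to 837 CPM in Ex2 and 466 to 502 CPM in Ex1. Between mTeSR and E8 at day 6, LDHA (log2 1.04 ± 0.17, adjusted p 2.59e-04) and HK2 (1.00 ± 0.20, adjusted p 0.00176) were higher in mTeSR, as TXNIP was.

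**Figure D5:**
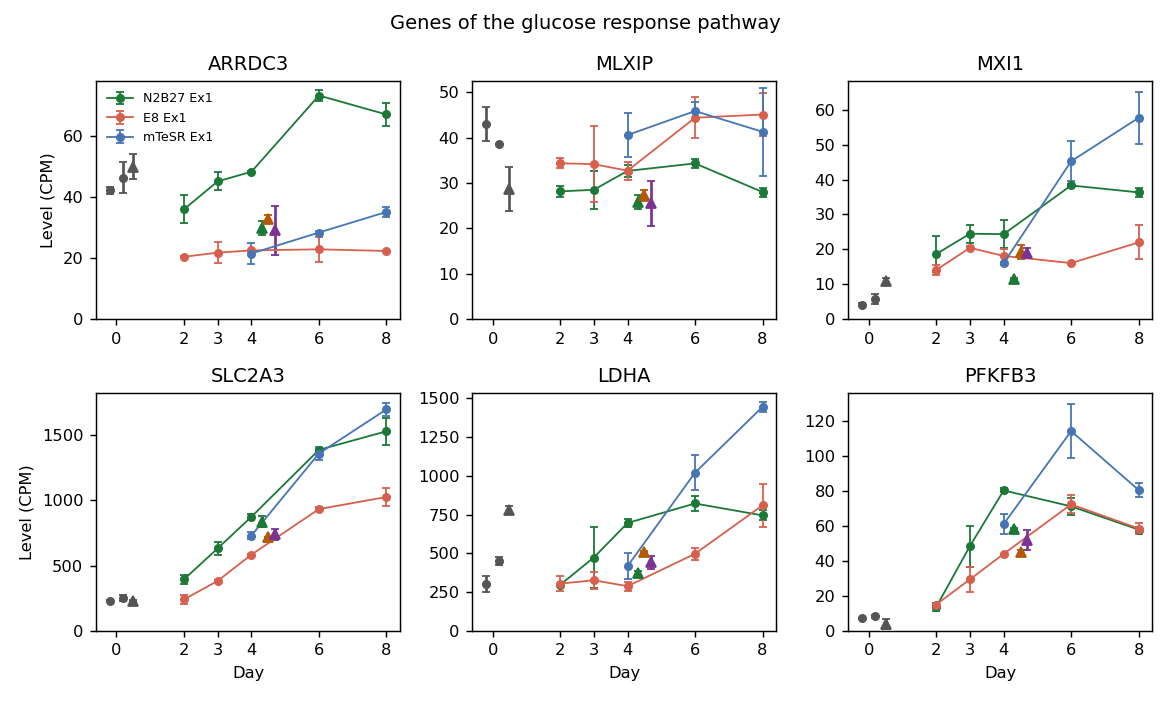
Mean level in CPM (y, ± SD, n = 2) against day (x) for ARRDC3, MLXIP, MXI1, SLC2A3, LDHA and PFKFB3 in N2B27 (green), E8 (red) and mTeSR (blue) of Ex1, with naive cells in grey near day 0, and Ex2 as triangles, those at day 4 shifted right for N2B27 (green), XAV (brown) and FAX (purple). ARRDC3 separates N2B27 from E8 (73.3 against 22.9 CPM at day 6), while the PFKFB3 means of both lie within their error bars at days 6 and 8.

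The 10 genes of the thioredoxin system, whose protein TXNIP inhibits, were all tested, and 1 rose and 2 fell in N2B27, 2 rose and 2 fell in E8, and 1 rose and 2 fell in mTeSR at day 8 against naive cells, beside 18.2% to 19.3% of all genes higher and 7.46% to 9.49% lower. TXNRD1, a thioredoxin reductase, fell in each (log2 -1.42, -1.61 and -1.71 in N2B27, E8 and mTeSR). TXN, thioredoxin itself, was not called at day 8 (log2 -0.14, 0.66 and -0.31). No gene of the list was called between E8 and N2B27 at days 6 or 8, where 5.28% and 7.29% of all genes were. Among 7 ubiquitin ligase and AMPK genes known to act on alpha-arrestins, NEDD4L was higher at day 8 than in naive cells in all 3 media. PRKAA2 (an AMPK subunit) was higher in E8 and mTeSR. None of the 7 was called between E8 and N2B27 at days 6 or 8, beside the same 5.28% and 7.29% of all genes. At day 8 PRKAA2 was higher and NEDD4 lower in mTeSR than in N2B27. Among 8 FOXO targets, PIK3IP1 alone was called against N2B27 at day 6. The log2 difference was -1.27 ± 0.27 in E8 (adjusted p 0.00134, edgeR) and -1.71 ± 0.28 in mTeSR (adjusted p 1.70e-04), where 2.97% and 1.4% of all genes were lower. None of the 8 was called against N2B27 at day 8, nor between mTeSR and E8 at days 6 or 8. IRS2 was higher than in naive cells at day 8 in each medium.

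Markers of other cell types also differed between the media at the late days. The summed level of 3 primitive endoderm markers (SOX17, GATA4 and GATA6) was 29.8 to 34.9 CPM in N2B27, 5.46 to 7.97 CPM in E8 and 11.3 to 15.9 CPM in mTeSR at day 6, and 109 to 110.0, 10.4 to 14.4 and 56.2 to 56.5 CPM at day 8. In E8 against N2B27, 2 of the 3 were lower at day 6 and all 3 at day 8, where 2.97% and 3.96% of all genes were lower. In mTeSR against E8, 1 was higher at day 6 and all 3 at day 8, where 0.63% and 2.51% of all genes were higher, so their order was that of TXNIP, and their part in its differences was not tested. At day 3, where TXNIP was also 3.40-fold lower in E8, the same sum was 2.71 to 4.20 CPM in N2B27 and 3.11 to 3.30 CPM in E8, so the libraries overlapped. Trophectoderm markers summed to 27.7 to 28.4 CPM in N2B27, 34.8 to 38.7 CPM in E8 and 20.8 to 21.3 CPM in mTeSR at day 6, and to 58.9 to 70.5, 13.5 to 18.6 and 10.9 to 11.4 CPM at day 8, when all 4 tested were lower in E8 than in N2B27, as were 3.96% of all genes. At day 3 they summed to at least 24.8 CPM in N2B27 and at most 18.0 CPM in E8. The fibroblast markers LUM and DCN did not pass the filter, and the summed level of the 6 fibroblast markers at day 6 was 241 to 243 CPM in N2B27, 215 to 216 CPM in E8 and 197 to 210.4 CPM in mTeSR, against 1.97 to 2.92 CPM in the naive libraries of Ex1, a rise carried by THY1 and collagen genes whose part in the rise of TXNIP was not tested. In Ex2 SOX17, GATA4 and GATA6 were at 0 in both naive libraries, and at day 4 in N2B27 their sum was at most 2.34 CPM there and at least 3.99 CPM in Ex1.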

How the data were processed

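Libraries were made with the Lexogen QuantSeq 3′ kit. Per the labels and the study's methods, the authors processed reads against hg38 with STAR 2.7.10a and Salmon 1.9.0 and deposited estimated counts per gene, which were whole numbers and were used as deposited. Strand settings are not given in the sources used here. Counts were filtered with filterByExpr (16674 of 57133 genes, 99.6% of counts), scaled by TMM and fitted in edgeR 4.0.16 (R 4.3.3) by a quasi-likelihood model with 19 groups and no other term, with Benjamini-Hochberg adjustment over all genes tested. On simulated counts the procedure was tested beforehand. Naive cells of the same experiment served as reference, with both coatings weighted equally in Ex1. The difference in change between the experiments used naive cells on Geltrex alone. Correlations used log2 CPM with a prior count of 2. Named genes were the 2 members, the genes of fixed pathway and marker lists, and the 5 genes most correlated with each member at 20 CPM or more, some of which are not reported here. The members and lists were chosen with earlier results of these data known. The limit of more than 10 counts for ARRDC4 was set after its values were seen, and its differences are described without a test. Alternatives covered scaling, filtering, DESeq2 1.42.0, the reference and leaving out each library.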

Additional observations from a re-analysis of the deposited data

Results flagged for a closer look

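The course of TXNIP in E8 differed from that in N2B27 by a test of the difference itself: the log2 difference between E8 and N2B27 was 1.08 lower at day 8 than at day 2 (log2 -1.08 ± 0.23, adjusted p 0.00257, edgeR), where 9.56% of all genes passed.

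TXNIP in N2B27 at day 4 lay above every naive library in Ex1 and below every naive library in Ex2. The log2 difference between the changes from naive cells on Geltrex in the experiments was -2.98. It uses the N2B27 libraries for which TXNIP was picked and was not tested. No group had enough libraries for a check of single outlying values.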

How the results depend on the processing

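Each of 59 values was recomputed, where the setting applied, under RLE scaling, unscaled library totals, a stricter filter (over 10 counts in 2 libraries), no filter, a replicate block, DESeq2, the compared libraries alone, other naive references and without each library in turn. With naive cells on Geltrex alone and with both experiments pooled, the TXNIP log2 fold change against naive cells was 0.85 and 0.63 in N2B27 at day 3, 0.75 and 0.53 in E8 at day 2, -0.12 and -0.34 in E8 at day 4 and 1.33 and 1.12 in mTeSR at day 4. For N2B27 at day 4 it was 2.22 with the Geltrex reference in Ex1. The pooled fit also merged the N2B27 libraries of both experiments at day 4, so its value of 1.38 changes 2 choices and belongs to neither experiment. With the pooled reference the change was 0.86 in E8 at day 6, -0.35 in XAV and -0.21 in FAX. Elsewhere, E8 against N2B27 at day 3 had -1.75 for TXNIP (compared libraries alone), TXNIP in mTeSR at day 8 against day 6 had 7.89e-04 (stricter filter), N2B27 at day 4 in Ex2 against Ex1 had -1.97 (library totals), ARRDC4 in E8 against N2B27 at day 6 had -1.94 (DESeq2), and ARRDC4 in mTeSR against E8 at day 6 had 1.64 (compared libraries alone). The causes were not tested.

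Leaving out a library changed a call, a sign or an untested value in these ranges of log2 fold change. For TXNIP they were 1.54 to 2.00 in mTeSR at day 4 against naive, -1.20 to -0.94 in FAX against naive, -2.52 to -2.19 in E8 and -1.14 to -0.68 in mTeSR against N2B27 at day 4, -0.57 to -0.34 in XAV and -0.45 to -0.18 in FAX against N2B27, -0.10 to 0.086 in mTeSR at day 8 against day 6, 0.75 to 1.10 for Geltrex against serum coating, -1.96 to -1.85 for N2B27 at day 4 between experiments, and -3.03 to -2.92 for its change from naive cells. For ARRDC4 they were -3.15 to -1.30 in E8 and -0.54 to 0.033 in mTeSR against N2B27 at day 6, 1.69 to 3.63 in N2B27 at day 8 against day 2, and -1.67 to 0.19 for mTeSR against E8 at day 8 against day 6. The lone library left in a group was assumed to vary like the other groups.

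Replicate numbers did not pair the libraries: over 171 pairs of groups the correlation of deviations ranged from -0.35 to 0.26, and 7 exceeded 0.1. A fit with the replicate block gave 1.96 for TXNIP in N2B27 at day 2 against naive, against 1.97 without it, and changed no call or direction among the 59 values. ARRDC4 could not be tested in some fits to the compared libraries alone, since it failed their filter. With 0 to 26 counts per library, ARRDC4 has a larger counting error than TXNIP, with 34 to 1122.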
